A study of Mus musculus with 2 samples.

Results

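The 10 genes described here encode parts of the elastic fibre and the enzymes that cross-link it: Eln, Fbn1, Fbln1, Fbln5, Efemp2, Emilin1, Lox, Loxl1, Mfap4 and Mfap5. They were found by symbol among the 32285 gene rows of 2 single-cell RNA-seq libraries of mouse aortic cells, and each symbol had 1 row in both libraries. The WT library came from ApoE-/- C57BL/6 mice on a Western diet. The EC-iCD45KO library came from mice of the same ApoE-/- background and diet that also carried a tamoxifen-inducible deletion of CD45 (Ptprc) in endothelial cells (EC). Both groups therefore lacked ApoE, the apolipoprotein that clears lipoprotein remnants, and both were fed to develop atherosclerosis. Aortas were digested with collagenases and Liberase, cells were bound to CD31 beads to enrich EC, and libraries were made with 10x Genomics chemistry. The labels give neither the Cre driver, nor the animals' age or sex, nor how many animals went into a library. Each group was 1 library, so no value below has a replicate check, no test of the groups was possible, and intervals (95%, exact) cover counting error only.

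Elastic fibres give the arterial wall its recoil. Tropoelastin, the product of Eln, is laid down on a scaffold of fibrillin microfibrils (Fbn1, with the associated glycoproteins Mfap4 and Mfap5), guided by fibulins (Fbln5 and Efemp2, also called fibulin-4) and the elastin interfacer Emilin1, and is then cross-linked by the lysyl oxidases Lox and Loxl1. In the aorta, smooth muscle cells (SMC) build most of the medial lamellae, while adventitial fibroblasts make fibrillin, fibulin-1 (Fbln1) and collagens.

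The WT library held 39849 barcodes and 92058043 UMIs (unique molecular identifiers, each a counted RNA molecule), and the EC-iCD45KO library 30278 barcodes and 88967918 UMIs, with medians of 1548 and 1405 UMIs per barcode. After the filters, 35553 and 26064 cells fell into 41 clusters, which were named from marker genes that exclude the 10 genes; the 10 genes also took no part in the clustering. EC-like cells numbered 1813 in WT and 1642 in EC-iCD45KO, 5.10% and 6.30% of the cells. An unnamed cluster led by Gpihbp1, Fabp4 and Rbp7 held a further 2182 and 2656 cells, with EC markers at 2468 and 2622 CPM and macrophage markers at 7397 and 14197 CPM. Together with these the EC-like cells were still a minority of the cells despite the CD31 beads. SMC-like cells numbered 1904 and 2968, and fibroblast-like cells 2123 and 2952. The 12 EC markers summed to 5897 and 6731 CPM (counts per 1000000 UMIs of the class) in EC-like cells, against 225.4 and 218.0 CPM in SMC-like and 360.3 and 633.5 CPM in fibroblast-like cells. The 12 SMC markers summed to 23994 and 30352 CPM in SMC-like cells, against 749.8 and 831.3 CPM in EC-like cells. The 13 fibroblast markers summed to 17450 and 14976 CPM in fibroblast-like cells, against 983.5 and 1002 CPM in EC-like cells. All 12 EC markers were also above 5 CPM in fibroblast-like cells, so detection alone does not set the classes apart. The libraries shared 340 barcodes. Ptprc stood at 194.2 CPM in WT and 51.1 CPM in EC-iCD45KO EC-like cells, but it was also lower in EC-iCD45KO in SMC-like cells (256.9 and 99.1 CPM), fibroblast-like cells (301.2 and 127.3 CPM), macrophage-like cells (503.7 and 286.5 CPM) and T/NK-like cells (1089 and 827.9 CPM), and higher in B-like cells (753.1 and 1264 CPM). Which exons the deletion removes is not given in the sources used here, so UMIs of Ptprc may come from outside it. The summed B cell markers moved with it in EC-like cells (559.7 CPM in WT, 34.4 CPM in EC-iCD45KO), as did T/NK markers (235.4 and 44.8 CPM), while macrophage markers were at 2111 and 2520 CPM, and the part of leukocyte RNA in the Ptprc level was not tested.

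RNA of the 10 genes was concentrated in the cells of the vessel wall. With each cell thinned to 1000 UMIs, 65.7% of WT and 74.1% of EC-iCD45KO SMC-like cells held a UMI of at least 1 of the 10 genes. Among fibroblast-like cells 66.5% and 72.4% did, and among EC-like cells 50.8% and 45.1%. B-like cells, which are not known as a source of elastic fibres, gave 2.56% and 6.43%, and T/NK-like cells 3.79% and 3.03%. The background was not one value. Plasma-like cells gave 15.0% and 41.8%, made of 9.73% and 32.7% in the cluster led by Ighg2b and 53.5% and 52.2% in that led by Ighg3. Erythroid-like cells gave 28.9% and 27.4%. The second value includes 61 EC-iCD45KO cells of a cluster with all 13 fibroblast markers above 5 CPM, without which it was 12.9%. Eln stood at 52.3 and 133.9 CPM in erythroid-like cells. The EC-like cluster led by Gpihbp1 had 160.7 and 132.9 CPM, so the 2 were near each other in EC-iCD45KO only. Median depths were 2007 and 2548 UMIs in B-like cells and 1264 and 1394 UMIs in SMC-like cells. Cells under 1000 UMIs were left out, 613 WT and 949 EC-iCD45KO SMC-like cells, 739 and 960 fibroblast-like cells, and 280 and 186 EC-like cells. Summed over the 10 genes, the level was 2087 CPM in WT and 2433 CPM in EC-iCD45KO SMC-like cells, 2048 and 2328 CPM in fibroblast-like cells, and 1547 and 1243 CPM in EC-like cells, against 24.8 and 43.7 CPM in B-like cells.

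**Figure D1:**
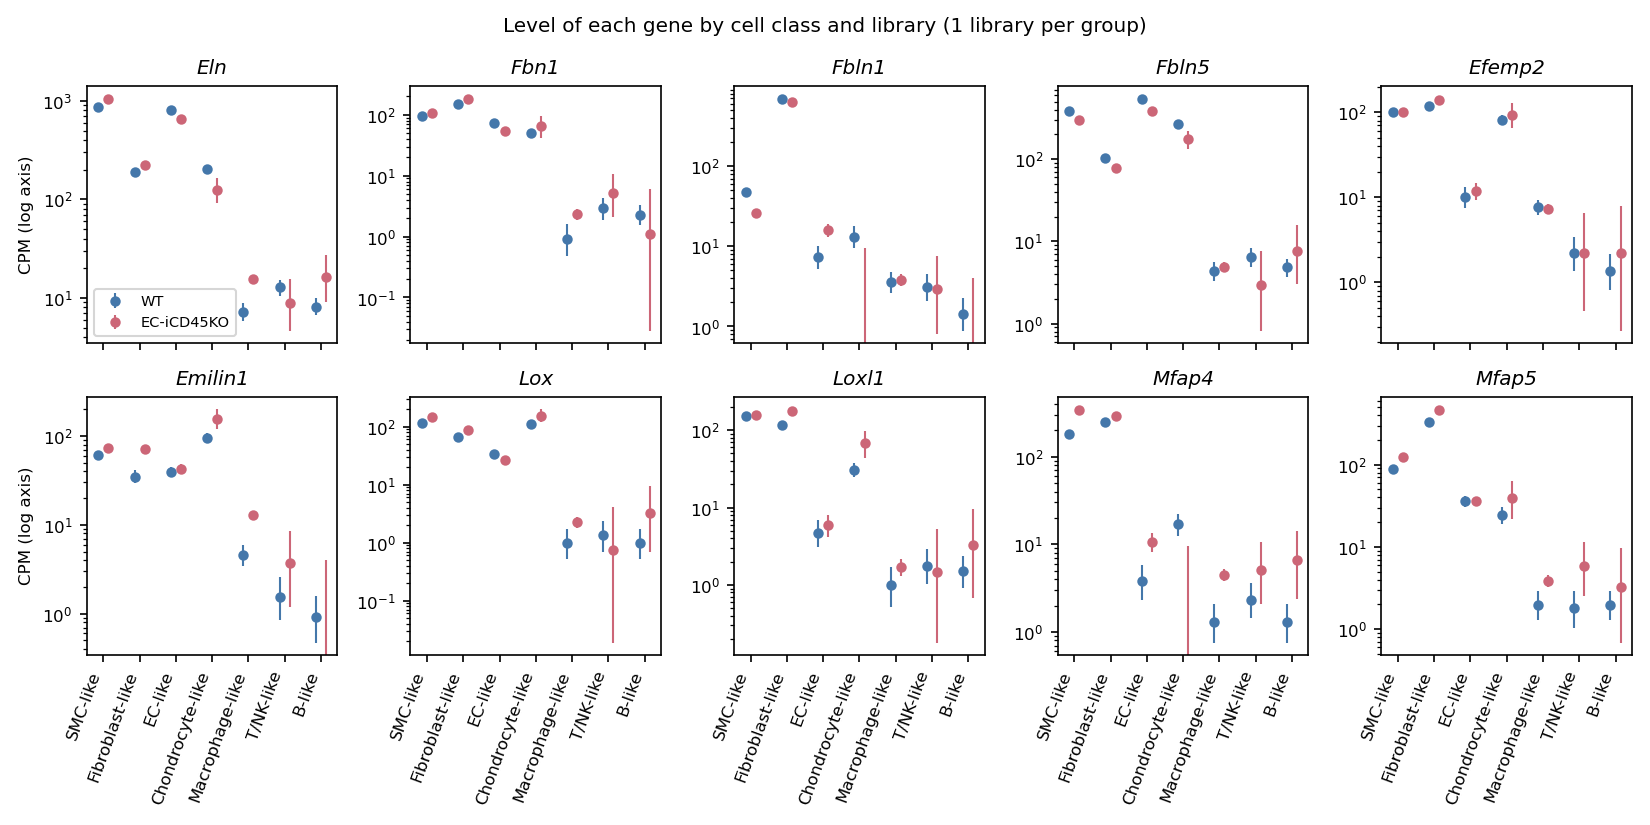
Level of each of the 10 genes in CPM (log axis) in 7 cell classes, WT in blue and EC-iCD45KO in red; points are class sums from 1 library, bars are 95% exact Poisson intervals, and a level of 0 shows only the upper part of its bar. Eln and Fbln5 are high in both SMC-like and EC-like cells, Fbln1 and Mfap5 are highest in fibroblast-like cells, and macrophage-, T/NK- and B-like cells lie near the bottom of every panel.

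Eln (ENSMUSG00000029675; GRCm38 chromosome 5, 134702593 to 134747323, minus strand), the elastic core of the fibre, stood at 860.8 CPM in WT (833.8 to 888.4) and 1057 CPM in EC-iCD45KO SMC-like cells (1037 to 1077). In EC-like cells it stood at 801.7 CPM (777.8 to 826.2) and 651.2 CPM (631.8 to 671.0). In fibroblast-like cells it stood at 187.6 CPM (174.5 to 201.5) and 221.9 CPM (211.1 to 233.1). SMC-like cells thus had the highest Eln of the named classes in both libraries, EC-like cells came next, and fibroblast-like cells lay below both, with no overlap of intervals in either library. Chondrocyte-like cells (205.9 CPM in WT and 124.3 CPM in EC-iCD45KO, the latter from 41 cells) were not separated from fibroblast-like cells in both libraries. A UMI of Eln was found in 36.6% of WT and 44.4% of EC-iCD45KO SMC-like cells thinned to 1000 UMIs (43.4% and 55.7% without thinning), against 0.798% and 2.25% of B-like cells (1.81% and 4.42% without thinning). SMC-like cells held 26.5% of all Eln UMIs in WT and 50.9% in EC-iCD45KO, while EC-like cells held 29.2% and 20.8%. Those shares follow the number of cells of each class captured as well as the level per cell.

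The Eln signal of EC-like cells was not spread evenly over their clusters. The EC-like cluster led by Sfrp1, whose leading genes include the arterial endothelial genes Gja5 and Bmx, had 1871 CPM of Eln in WT (1810 to 1933) and 2524 CPM in EC-iCD45KO (2438 to 2611). The cluster led by Gpihbp1, a capillary endothelial gene, had 160.7 CPM (143.9 to 179.0) and 132.9 CPM (120.7 to 145.9). The cluster led by Ackr1, a venular gene, had 261.2 CPM (232.1 to 293.0) and 265.9 CPM (242.6 to 290.9). Over all its cells, the level of the Sfrp1 cluster was also above that of SMC-like cells as a whole and of their deeper cluster, led by Cnn1 and including Wnt16 (1130 and 1418 CPM). It was 11.6 times the level of the Gpihbp1 cluster in WT and 19.0 times in EC-iCD45KO. After thinning, 57.4% of WT and 71.2% of EC-iCD45KO cells of the Sfrp1 cluster had an Eln UMI, against 12.2% and 8.72% of the Gpihbp1 cluster.

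Markers of other wall cells were present in the Sfrp1 cluster. Its 12 SMC markers summed to 944.6 CPM in WT and 1226 CPM in EC-iCD45KO, with 8 of 12 above 5 CPM and none at 0, against 23994 and 30352 CPM in SMC-like cells. Its 13 fibroblast markers summed to 1434 and 2062 CPM. When only cells of the cluster without a UMI of any SMC marker were kept, 421 WT and 149 EC-iCD45KO cells, Eln stood at 1473 CPM (1384 to 1567) and 2071 CPM (1893 to 2262). In the 179 WT and 39 EC-iCD45KO cells with neither an SMC nor a fibroblast marker UMI, it stood at 840.2 CPM (718.6 to 976.4) and 1246 CPM (959.9 to 1592). Both values are above the Eln levels of the Gpihbp1 cluster under the same selection, 110.2 CPM (78.4 to 150.7) and 70.6 CPM (39.5 to 116.5). Neither value is above that of the deeper SMC-like cluster taken without selection (1130 and 1418 CPM). Their intervals include the levels of SMC-like cells as a whole (860.8 and 1057 CPM). Cells without marker UMIs are on the whole shallow cells, and these selections were chosen after seeing the data.

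Fbln5, the fibulin that binds tropoelastin and integrins at the cell surface, followed Eln in being high in both SMC-like and EC-like cells. It reached 539.3 CPM in WT (519.7 to 559.5) and 388.9 CPM in EC-iCD45KO EC-like cells (374.0 to 404.3), 381.2 CPM (363.3 to 399.7) and 300.8 CPM (290.0 to 311.8) in SMC-like cells, and 102.0 CPM (92.4 to 112.3) and 78.9 CPM (72.6 to 85.7) in fibroblast-like cells. Of the named classes, EC-like cells ranked first and SMC-like cells second in both libraries, with intervals that did not overlap. That order rests on the unnamed Gpihbp1 and Fabp4 cluster being left out: with it counted as EC-like, chosen after seeing the data, Fbln5 was 381.8 CPM in WT (368.8 to 395.2) and 286.3 CPM in EC-iCD45KO (276.1 to 296.7), and both intervals overlap those of SMC-like cells. Within EC-like cells the Sfrp1 cluster stood at 1026 and 993.3 CPM, the Gpihbp1 cluster at 340.3 and 292.3 CPM, and the Ackr1 cluster at 95.7 and 127.1 CPM. The Gpihbp1 cluster thus kept a Fbln5 level close to that of SMC-like cells at a low Eln level. In its 182 WT and 97 EC-iCD45KO cells without SMC or fibroblast marker UMIs, Fbln5 was 299.6 CPM (245.3 to 362.4) and 292.0 CPM (223.9 to 374.3). In such cells of the Sfrp1 cluster it was 380.6 CPM (300.3 to 475.6) and 292.1 CPM (163.5 to 481.8), so the clusters overlapped in Fbln5 under this selection.

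The genes Eln, Fbln1, Fbln5, Emilin1, Lox and Mfap5 were at least 2-fold higher in the Sfrp1 than in the Gpihbp1 cluster in both libraries, 6 of 10 where 7.11% of the 10357 genes compared (those of at least 5 CPM on average) were. Fbln1 (1.45 and 2.44 CPM) and Mfap5 (3.38 and 4.58 CPM) were under 5 CPM in the Gpihbp1 cluster and entered only through the Sfrp1 cluster, so the count is a description. Markers of other cells moved with this contrast. Fibroblast markers were at 1434 and 2062 CPM in the Sfrp1 cluster against 418.5 and 524.4 CPM in the Gpihbp1 cluster, and SMC markers at 944.6 and 1226 CPM against 248.6 and 525.0 CPM. In cells without UMIs of either list, Fbln1 had no UMI in the Sfrp1 cluster in either library, and Lox was at 24.7 CPM (8.02 to 57.7) there and 19.8 CPM (7.96 to 40.8) in the Gpihbp1 cluster in WT. Mfap5 and Emilin1 stayed apart in WT under this selection, at 54.4 CPM (27.1 to 97.3) and 39.5 CPM (17.1 to 77.9) in the Sfrp1 cluster, each against 2.83 CPM (0.07 to 15.7) in the Gpihbp1 cluster. In EC-iCD45KO the 39 Sfrp1 cells gave at most 3 UMIs of Lox, Emilin1 or Mfap5. The same 6 were at least 2-fold higher than in the Ackr1 cluster, where 4.13% of 10322 genes were. Fbn1 went the other way against the Ackr1 cluster, at 50.5 and 38.97 CPM in the Sfrp1 cluster and 131.5 and 82.0 CPM in the Ackr1 cluster (lower by 2-fold in both libraries, with 4.33% of genes). Loxl1 was at 4.68 and 9.17 CPM in the Sfrp1 cluster and Efemp2 at 7.81 and 21.4 CPM, both far below their SMC-like levels.

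**Figure D2:**
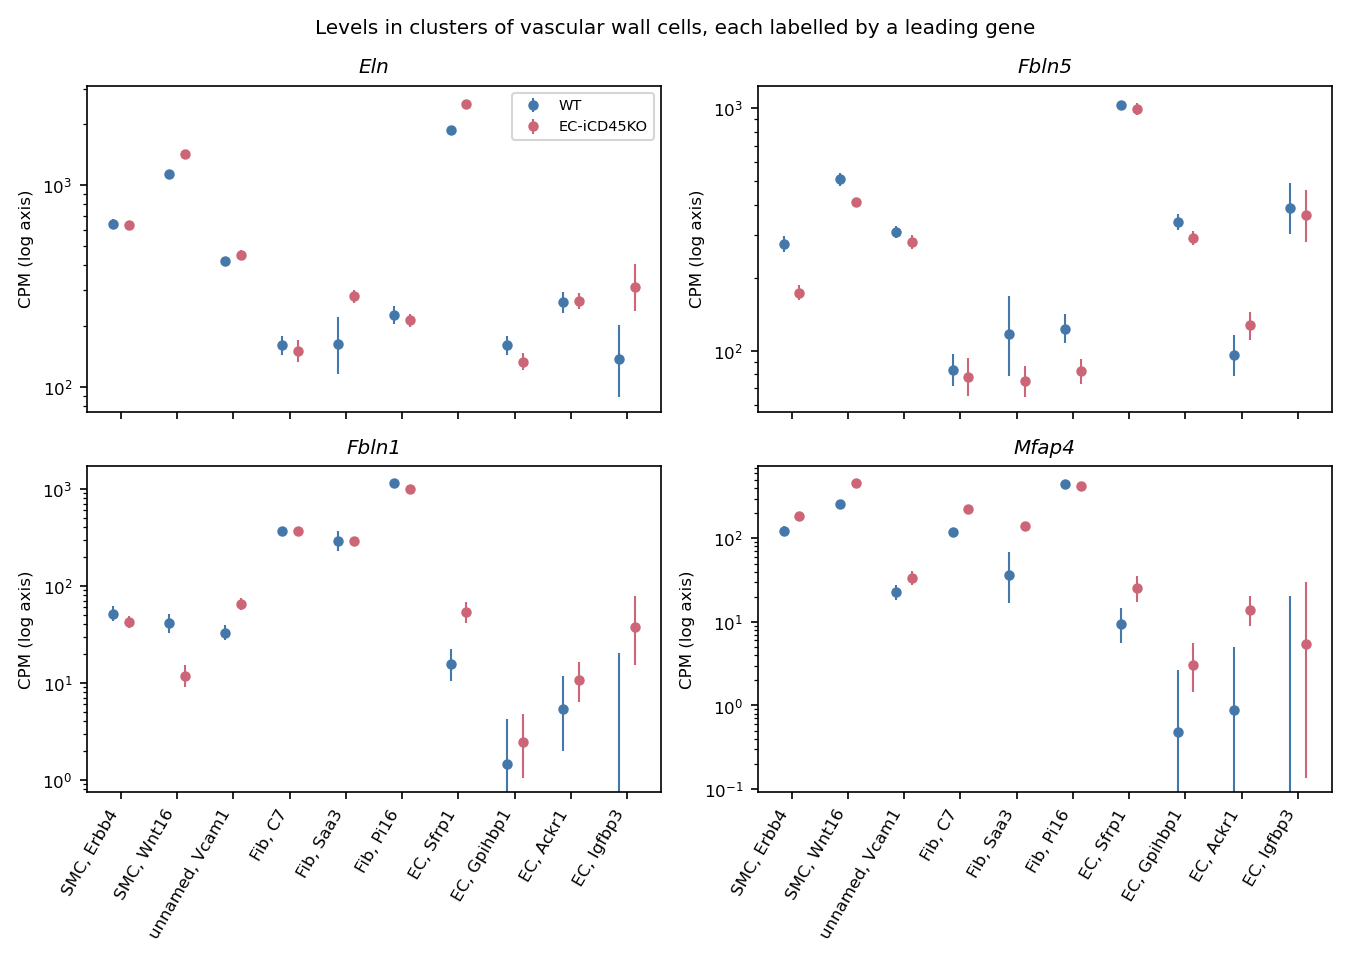
Levels of Eln, Fbln5, Fbln1 and Mfap4 in CPM (log axis) in 10 clusters, each labelled by its class and a leading gene, WT in blue and EC-iCD45KO in red; bars are 95% exact Poisson intervals, and a level of 0 shows only its upper part. Eln and Fbln5 peak in the EC-like Sfrp1 cluster (1871 and 2524 CPM of Eln), Fbln1 peaks in the fibroblast-like Pi16 cluster, and Mfap4 is low in the Vcam1 cluster and in all EC-like clusters.

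Fbln1, a fibulin of microfibrils and basement membranes, had its highest level in the class where Fbln5 was lowest of the 3 main classes. In fibroblast-like cells it stood at 687.4 CPM in WT (662.0 to 713.4) and 622.8 CPM in EC-iCD45KO (604.7 to 641.3). In SMC-like cells it stood at 47.0 CPM (40.9 to 53.8) and 25.8 CPM (22.8 to 29.2), and in EC-like cells at 7.37 and 15.9 CPM. Fibroblast-like cells held 71.6% of all Fbln1 UMIs in WT and 83.3% in EC-iCD45KO. Fbln1 was 14.6 times higher in fibroblast-like than in SMC-like cells in WT and 24.1 times in EC-iCD45KO. Of the 45 pairs among the 10 genes, Fbln1 and Fbln5 had the lowest correlation of log2(CPM + 1) over the 28 profiles of 14 classes in 2 libraries (Pearson r = 0.35), a description over classes that share libraries, depth and free RNA.

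The 250 bases before the first listed start of the fibulin pair are shown because these were the least alike members; they are RefSeq promoter windows on GRCm38.p6, written 5′ to 3′ on the strand of the gene, with CG dinucleotides in capitals. Fbln5 lies on the minus strand of chromosome 12 (gene body 101746565 to 101819055) and Fbln1 on the plus strand of chromosome 15 (85205949 to 85286535).
Fbln5, chr12:101819120-101819369: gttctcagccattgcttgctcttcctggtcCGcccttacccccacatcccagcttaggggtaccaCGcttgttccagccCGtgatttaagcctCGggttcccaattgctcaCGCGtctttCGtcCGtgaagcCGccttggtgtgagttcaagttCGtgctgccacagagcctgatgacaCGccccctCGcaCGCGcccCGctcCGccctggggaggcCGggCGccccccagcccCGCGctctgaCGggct
Fbln1, chr15:85205699-85205948: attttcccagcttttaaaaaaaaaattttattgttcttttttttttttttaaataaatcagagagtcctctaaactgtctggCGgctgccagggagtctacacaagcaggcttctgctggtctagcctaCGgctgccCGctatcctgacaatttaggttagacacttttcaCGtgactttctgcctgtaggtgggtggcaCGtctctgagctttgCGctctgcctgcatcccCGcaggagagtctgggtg
The Fbln5 window had 65.2% G or C and 21 CG dinucleotides, a count reached by 16.3% of the 32851 promoter windows of that table. The Fbln1 window had 46.4% G or C and 7 CG dinucleotides, a count reached by 46.3%. Both genes have a second listed start whose window differs, with 6 CG dinucleotides for Fbln5 and 14 for Fbln1, so the contrast holds for the first listed starts only. A script searched both strands of the windows of the 5 listed members (Fbn1, Fbln1, Fbln5, Efemp2, Emilin1) for the TATA box TATAAA, the AP-1 site TGANTCA, the MCAT element CATTCC and the CArG box. None of these letters was in any of their 9 windows, while 12.4%, 6.75%, 12.6% and 1.47% of all windows held them.

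Mfap5 and Fbn1, microfibril genes, were also highest in fibroblast-like cells. Mfap5 stood at 331.0 CPM in WT (313.5 to 349.3) and 459.2 CPM in EC-iCD45KO fibroblast-like cells (443.7 to 475.2), and at 89.5 CPM (81.0 to 98.7) and 125.1 CPM (118.2 to 132.3) in SMC-like cells. Fbn1 stood at 152.1 CPM (140.3 to 164.6) and 180.9 CPM (171.2 to 191.0) in fibroblast-like cells, and at 94.4 CPM (85.7 to 103.9) and 107.6 CPM (101.2 to 114.2) in SMC-like cells. Fibroblast-like cells ranked first for both genes, with intervals apart from the next class in both libraries. Mfap4, which binds collagen and elastic fibres, stood at 250.6 CPM (235.4 to 266.6) and 287.7 CPM (275.4 to 300.4) in fibroblast-like cells and at 182.6 CPM (170.3 to 195.6) and 336.5 CPM (325.2 to 348.2) in SMC-like cells. Its order of these classes differed between the libraries, fibroblast-like first in WT and SMC-like first in EC-iCD45KO.

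The cross-linking enzymes and their partner were higher in SMC-like and fibroblast-like cells than in EC-like cells as a class. Loxl1 stood at 153.8 CPM in WT (142.5 to 165.7) and 159.0 CPM in EC-iCD45KO SMC-like cells (151.3 to 167.1), at 117.9 CPM (107.5 to 129.0) and 177.0 CPM (167.4 to 187.0) in fibroblast-like cells, and at 4.72 and 5.94 CPM in EC-like cells. Its EC-like share of cells was 0.718% and 0.687% after thinning, against 0.186% and 0.322% of B-like cells. Lox stood at 116.4 CPM (106.6 to 126.8) and 147.4 CPM (139.9 to 155.2) in SMC-like cells, 66.0 and 89.0 CPM in fibroblast-like cells, and 33.1 and 26.8 CPM in EC-like cells. Within EC-like cells the Sfrp1 cluster had Lox at 70.8 and 107.7 CPM. Efemp2, which brings Lox to tropoelastin, stood at 100.7 and 100.4 CPM in SMC-like cells, 118.6 and 139.5 CPM in fibroblast-like cells, and 10.0 and 11.7 CPM in EC-like cells. The fibroblast-like level of Efemp2 was above the SMC-like level, by 0.24 on the log2 scale in WT cells (interval 0.05 to 0.42), and by 0.47 (interval 0.35 to 0.60) in EC-iCD45KO cells. Mus81 overlaps Efemp2 on the opposite strand and stood at 9.62 and 8.61 CPM in SMC-like cells; whether counting used strand is not given in the sources used here.

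Emilin1 stood at 60.6 CPM (53.7 to 68.3) and 73.6 CPM (68.4 to 79.2) in SMC-like cells and at 34.7 CPM (29.2 to 41.0) and 70.8 CPM (64.8 to 77.3) in fibroblast-like cells. It was highest in chondrocyte-like cells, at 95.3 and 155.4 CPM, the second value from 60 UMIs. Lox there was close to its SMC-like level, at 110.2 and 155.4 CPM. Fbln5 was 264.3 and 173.5 CPM in chondrocyte-like cells, whereas Mfap4 was at 16.8 CPM in WT and had no UMI in EC-iCD45KO, where 3 UMIs would make 7.77 CPM.

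Set against SMC-like cells, 5 members were at least 2-fold lower in EC-like cells in both libraries (Efemp2, Lox, Loxl1, Mfap4 and Mfap5), where 7.76% of 10701 genes were. No member was 2-fold higher, where 11.3% were. Set against SMC-like cells, fibroblast-like cells were at least 2-fold higher in Fbln1 and Mfap5 in both libraries (5.33% of 10574 genes) and at least 2-fold lower in Eln and Fbln5 (4.86%). By any amount, 4 members were higher in fibroblast-like cells in both libraries, Fbn1, Fbln1, Efemp2 and Mfap5, where 48.0% of genes were. The 4 genes Eln, Fbln5, Emilin1 and Lox were lower in both, where 31.2% of genes were. The order of the classes for Loxl1 and Mfap4 differed between the libraries.

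**Figure D3:**
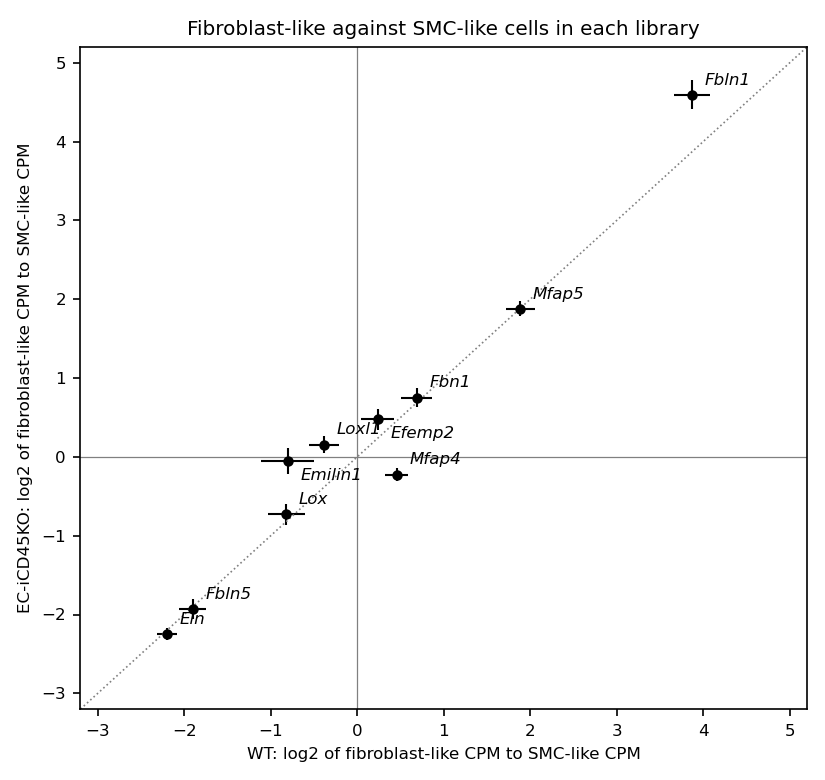
Log2 ratio of the fibroblast-like to the SMC-like level of each gene in WT (horizontal) and in EC-iCD45KO (vertical), with 95% counting intervals; the dotted line marks equal ratios. Fbln1 and Mfap5 lie at the upper right, Eln and Fbln5 at the lower left, and Mfap4 and Loxl1 are on opposite sides of 0 in the 2 libraries.

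The 2 SMC-like clusters differed in depth and in marker levels. The deeper one (median 8120 UMIs in WT and 10984 in EC-iCD45KO) and the shallower one (1167 and 1190 UMIs, with Erbb4 among its leading genes) both had Cnn1, Itga8, Tagln and Acta2 on top. SMC markers summed to 35631 and 40894 CPM in the deeper cluster and 14538 and 17981 CPM in the shallower one, and macrophage markers to 312.0 and 754.4 CPM against 4827 and 9781 CPM. Of the 10 genes, only Mfap4 was 2-fold higher in the deeper cluster in both libraries (2.05 and 2.51 times), where 2.7% of 10233 genes were. Eln was 1.76 and 2.24 times higher there. Depth and macrophage markers went with the cluster, and their part in these values was not tested.

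A further cluster, led by Vcam1, Slurp1, Timp1, Mgp and Tnfrsf11b, was left unnamed because genes of several lists were on top. It held 539 WT and 382 EC-iCD45KO cells, with SMC markers at 3994 and 3760 CPM and fibroblast markers at 15539 and 19592 CPM. In it Eln stood at 419.8 CPM in WT and 451.2 CPM in EC-iCD45KO, 0.488 and 0.427 times the SMC-like level. Mfap4 stood at 22.8 and 33.6 CPM, 0.125 and 0.0998 times the SMC-like level. These 2 members were at least 2-fold lower in both libraries (5.6% of 10231 genes), and none of the 10 was 2-fold higher (2.79% of genes). Lox (111.0 and 162.0 CPM), Loxl1 (140.2 and 131.6 CPM), Efemp2 (106.9 and 124.0 CPM) and Fbln5 (308.3 and 280.7 CPM) stood at 0.809 to 1.24 times the SMC-like level. In the deeper SMC-like cluster they were at 159.3 and 190.2 (Lox), 221.7 and 204.5 (Loxl1), 139.3 and 123.3 (Efemp2) and 509.7 and 409.4 CPM (Fbln5). The Vcam1 cluster had medians of 6468 and 4361 UMIs, against 1264 and 1394 in SMC-like cells, and the part of depth was not tested. Among 18 other elastic fibre genes, 4 were 2-fold higher there than in SMC-like cells in both libraries (Fbln2, Efemp1, Ltbp2 and Bmp1) and 2 lower (Emilin2 and Ltbp1). Ltbp2, a latent TGF-beta binding protein family member that binds fibrillin, stood at 293.0 and 402.9 CPM against 61.1 and 52.9 CPM in SMC-like cells. Ltbp1 stood at 233.2 and 174.0 CPM against 513.4 and 527.2 CPM. Relative to fibroblast-like cells, Eln was at 2.24 and 2.03 times, Fbln5 at 3.02 and 3.56 times and Ltbp2 at 4.98 and 3.44 times their level. Fbln1 (0.048 and 0.105 times), Mfap4 (0.0911 and 0.117 times) and Mfap5 (0.216 and 0.288 times) were lower. Fbln2 (1.52 and 1.67 times), Efemp1 (1.09 and 1.52 times) and Bmp1 (0.722 and 0.70 times) were nearer to the fibroblast-like than to the SMC-like level.

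Fibroblast-like cells formed 3 clusters. One was led by Clec3b, C7 and Inmt (1649 WT and 1205 EC-iCD45KO cells), one by Saa3 and Cxcl14 (115 and 1295 cells), and one by Fbln1, Ccl19 and Sfrp4 with Mfap5, Pi16 and Dpt (359 and 452 cells). The last is called the Pi16 cluster as a label only, since its leading genes Ccl19, Sfrp4 and Cxcl14 also lead the Saa3 cluster. The Pi16 cluster had Fbln1 at 1147 and 990.1 CPM, Mfap5 at 549.3 and 678.0 CPM and Mfap4 at 450.5 and 427.0 CPM. The C7 cluster had Fbln1 at 370.9 and 365.7 CPM, Mfap5 at 166.5 and 275.2 CPM and Mfap4 at 117.8 and 224.2 CPM. The 7 genes Fbn1, Fbln1, Efemp2, Emilin1, Lox, Loxl1 and Mfap5 were at least 2-fold higher in the Pi16 than in the C7 cluster in both libraries, where 4.55% of 10469 genes were; Fbln1 and Mfap5 are among the leading genes of the Pi16 cluster, so their values describe it only. The Pi16 cluster was also the deeper, with medians of 3952 and 5603 UMIs against 1073 and 992. Its fibroblast markers summed to 28201 and 22498 CPM, against 9808 and 10392 CPM in the C7 cluster, and macrophage markers to 895.6 and 2126 CPM, against 6276 and 12581 CPM. The part of depth and macrophage RNA in these values was not tested. No member passed 2-fold in both libraries between the Saa3 and C7 clusters (1.64% of 10344 genes higher, 0.715% lower).

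Between the libraries, 6 of the 10 genes were higher in EC-iCD45KO SMC-like cells beyond counting error and 2 were lower. Mfap4 had the largest value, with a log2 ratio of EC-iCD45KO to WT of 0.88 (0.77 to 0.99), followed by Mfap5 at 0.48 (0.32 to 0.65), Lox at 0.34 (0.20 to 0.49), Eln at 0.30 (0.24 to 0.35) and Emilin1 at 0.28. Fbln1 was at -0.86 (-1.13 to -0.59) and Fbln5 at -0.34 (-0.43 to -0.25). Loxl1 was at 0.05 (-0.08 to 0.18), and Efemp2 stood at 100.7 and 100.4 CPM; both intervals span 0. The median of the 10 was 0.23, against -0.05 for all 10809 genes compared. Within the clusters it was 0.18 in the shallower and -0.02 in the deeper one, which held 229 of the 1904 WT and 469 of the 2968 EC-iCD45KO cells. None of the 10 reached 2-fold in SMC-like cells, where 5.81% of genes did. Intervals lay above 0 for 6 members and below 0 for 2, where 16.4% and 24.5% of genes did so. Over the alternative settings the Eln value ran from 0.21 to 0.64, and Fbln1 was at 0.019 with the mean of single-cell CPM in place of summed UMIs.

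The Mfap4 difference was seen in both SMC-like clusters, at 0.58 (0.39 to 0.77) in the shallower and 0.87 (0.73 to 1.01) in the deeper one. Eln itself was 7.22 and 15.6 CPM in macrophage-like cells. The Mfap4 level was also higher in EC-iCD45KO in classes that should hold little of it, at 1.29 and 4.52 CPM in macrophage-like cells and 1.29 and 6.55 CPM in B-like cells. Mapk7 overlaps Mfap4 on the opposite strand and stood at 7.61 and 7.80 CPM in SMC-like cells. For Eln, the ratio was 0.33 (0.26 to 0.40) in the deeper cluster and -0.02 (-0.11 to 0.07) in the shallower one. For Fbln1, it was -1.81 (-2.31 to -1.32) in the deeper cluster, from 41.4 to 11.8 CPM, and -0.29 (-0.62 to 0.05) in the shallower one. Fibroblast markers moved with it in SMC-like cells, at 3421 CPM in WT and 2291 CPM in EC-iCD45KO (4488 and 2075 CPM in the deeper cluster), and their part in the Fbln1 value was not tested. SMC markers were higher in EC-iCD45KO SMC-like cells, 30352 against 23994 CPM, as were macrophage markers, 4908 against 2803 CPM.

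In fibroblast-like cells the log2 ratios were 1.03 (0.76 to 1.31) for Emilin1, 0.59 for Loxl1, 0.47 for Mfap5, 0.43 for Lox, 0.25 for Fbn1, 0.24 for Eln, 0.23 for Efemp2 and 0.20 for Mfap4, with Fbln1 at -0.14 and Fbln5 at -0.37. The median was 0.25, against -0.05 for all 11113 genes. Emilin1 was the member that reached 2-fold, where 6.57% of genes did. Intervals lay above 0 for 8 members and below 0 for 2, where 17.2% and 22.6% of genes did so. The median rose to between 0.73 and 0.89 under 3 settings in which the class took in WT cells of the cluster led by Slurp1 and Dmp1, and Fbln1 was then at 0.47 to 0.65. Emilin1 was near 2-fold in the C7 cluster (1.005, 0.46 to 1.56) and the Pi16 cluster (1.01, 0.64 to 1.39) and was at 0.07 (-0.76 to 1.01) in the Saa3 cluster, which held few WT cells. Emilin1 was also higher in EC-iCD45KO macrophage-like cells, by 1.49 on the log2 scale, from 4.56 to 12.8 CPM. The make-up of the class differed between libraries, since the Saa3 cluster was 115 of the WT and 1295 of the EC-iCD45KO cells. Member medians within clusters were 0.45 in the C7 cluster, 0.16 in the Pi16 cluster and -0.02 in the Saa3 cluster. SMC markers were 659.1 CPM in WT and 1385 CPM in EC-iCD45KO fibroblast-like cells, and their part in these values was not tested.

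In EC-like cells, the class in which CD45 was to be deleted, the median was 0.06, against 0.004 for all 10900 genes. The cluster medians were 0.67 (Sfrp1), 0.10 (Ackr1), -0.25 for the Gpihbp1 cluster over the 6 members that reached 5 CPM, and 0.98 over 9 members for the small cluster led by Igfbp3 (64 and 63 cells). In the Sfrp1 cluster fibroblast markers went from 1434 to 2062 CPM and SMC markers from 944.6 to 1226 CPM with it, and their part in the median was not tested. Fbln5 was at -0.47 (-0.55 to -0.39), Fbn1 at -0.43 (-0.65 to -0.22), Eln at -0.30 (-0.36 to -0.24) and Lox at -0.30 (-0.61 to 0.01). Fbln1 was at 1.11 (0.56 to 1.68) and Mfap4 at 1.48 (0.74 to 2.27), both from low levels, 39 and 104 UMIs of Fbln1 and 20 and 69 UMIs of Mfap4. These 2 members reached 2-fold, where 5.19% of genes did. Mfap4 was under 5 CPM in WT (3.78 CPM) and entered only through EC-iCD45KO (10.5 CPM), so the count is a description. Intervals lay above 0 for 2 members and below 0 for 3, where 17.5% and 17.2% of genes did so. The Sfrp1 cluster was 823 of 1813 WT and 464 of 1642 EC-iCD45KO EC-like cells, and within it Eln went the other way from the class, at 0.43 (0.36 to 0.50). In the Gpihbp1 cluster Eln was at -0.27 (-0.48 to -0.06), in the Ackr1 cluster at 0.03 (-0.19 to 0.24), and in the Igfbp3 cluster at 1.20 (0.50 to 1.93) from 25 and 58 UMIs. Fbln5 was at -0.05 (-0.15 to 0.05) in the Sfrp1 cluster, -0.22 (-0.36 to -0.08) in the Gpihbp1 cluster and 0.41 (0.07 to 0.75) in the Ackr1 cluster. The part of cluster make-up in the class values was not tested. With the 4 EC-like clusters weighted equally, an alternative chosen after seeing the data, Eln was at 0.41. With components centred per library, Fbln5 was at 0.50 in a class of 275 and 344 cells. In the Sfrp1, Gpihbp1 and Ackr1 clusters Fbn1 was at -0.37 (-0.89 to 0.13), -0.45 (-0.81 to -0.09) and -0.68 (-1.02 to -0.34). Over the 3 classes, 3 members (Eln, Fbn1 and Fbln1) had intervals on opposite sides of 0 in different classes, where 4.93% of 9835 genes did.

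**Figure D4:**
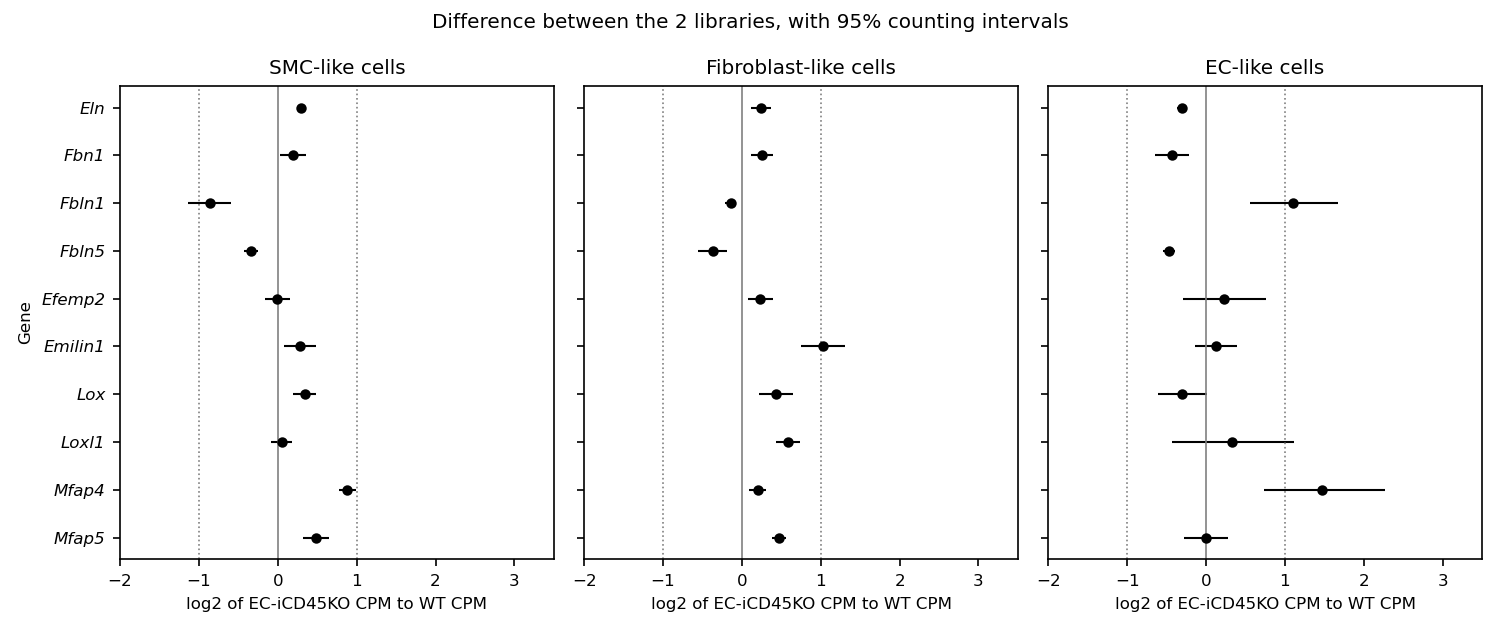
Log2 ratio of the EC-iCD45KO to the WT level of each gene in 3 cell classes, with 95% counting intervals; dotted lines mark 2-fold and each value rests on 1 library per group. Fbln5 is below 0 in all 3 panels, Mfap4 is above 0 in all 3, and Eln and Fbn1 are above 0 in SMC-like and fibroblast-like cells and below 0 in EC-like cells.

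Other genes of the pathway were followed in the same way. Of 18 other elastic fibre genes, 14 reached 5 CPM on average in SMC-like cells, with a median log2 ratio of 0.04, against -0.05 for all genes compared. Only Efemp1, the gene of fibulin-3, passed 2-fold (47.0 and 20.2 CPM, -1.22), where 5.81% of genes did. In fibroblast-like cells 16 reached 5 CPM, with a median of 0.14, against -0.05 for all genes compared. None passed 2-fold, where 6.57% of genes did, and Ltbp2 was nearest, at 58.8 and 117.0 CPM (0.99, 0.78 to 1.21). In EC-like cells 13 reached 5 CPM, with a median of -0.21, against 0.004 for all genes compared. Within clusters the median was 0.008 (Sfrp1), 0.20 (Gpihbp1, over 9 genes), -0.48 (Ackr1) and 1.04 (Igfbp3). Fbln2, a fibulin of vessel basement membranes, stood at 428.3 and 266.4 CPM in EC-like cells (-0.68, -0.78 to -0.59). Its level was at least 2-fold higher in the Sfrp1 than in the Gpihbp1 and Ackr1 clusters in both libraries. The Sfrp1 cluster held 823 WT and 464 EC-iCD45KO cells, and the part of cluster make-up in the Fbln2 value was not tested. Loxl3, a lysyl oxidase family member, passed 2-fold in EC-like cells, at 10.0 and 4.57 CPM (-1.13, -1.83 to -0.46), where 5.19% of genes did. Of 13 elastin degrading enzymes and inhibitors, 10 reached 5 CPM in SMC-like cells, with a median of -0.15, against -0.05 for all genes compared. Timp1, an inhibitor of metalloproteinases, stood at 300.6 and 865.7 CPM there (1.53, 1.44 to 1.61). Timp1 passed 2-fold in the shallower SMC-like cluster and not in the deeper one. Ctsk, an elastin degrading cathepsin, was at 72.7 and 32.5 CPM in SMC-like cells (-1.16). Both Ctsk and Efemp1 were at least 2-fold higher in fibroblast-like than in SMC-like cells in both libraries. Fibroblast markers were at 4488 and 2075 CPM in the deeper SMC-like cluster, and their part in the Ctsk and Efemp1 values was not tested. Timp1 also passed 2-fold in fibroblast-like cells, at 645.9 and 1298 CPM. Within the class it passed 2-fold in the Pi16 cluster and not in the C7 or Saa3 cluster. The Saa3 cluster, with 115 WT and 1295 EC-iCD45KO cells, had at least 2-fold more Timp1 than the C7 cluster in both libraries. The part of cluster make-up was not tested. Outside the vessel wall classes, Timp1 was at least 2-fold higher in EC-iCD45KO in dendritic cell-like, neutrophil-like and T/NK-like cells. Ctsk was also lower in EC-iCD45KO macrophage-like cells, 126.9 and 44.1 CPM (-1.53, -1.62 to -1.43), as was Mmp12, the macrophage elastase, at 298.9 and 184.3 CPM (-0.70, -0.75 to -0.64). Intervals of this list lay above 0 for 5 genes and below 0 for 5 in macrophage-like cells, where 17.5% and 26.9% of 9545 genes did so, with Ctss (3685 and 4100 CPM) and Timp1 (47.8 and 62.2 CPM) among the higher ones. The macrophage-like class was made of the same clusters in both libraries, but in different proportions. The one led by Lyz2 and Pltp was 701 of 3430 WT and 4512 of 9671 EC-iCD45KO cells, and the one led by Gpnmb and Mmp12 was 1177 and 1811 cells. In the cluster led by Chil3, Mmp12 was at least 2-fold higher in EC-iCD45KO. Ctss, a cathepsin of macrophages, was also higher in fibroblast-like cells, 553.4 and 965.2 CPM, where macrophage markers summed to 3913 and 6947 CPM, and their part in it was not tested.

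For each of the 10 genes, the 3 genes most like it over the same 28 profiles were taken, among 7131 genes of at least 50 CPM in 1 profile. Eln was nearest to Col4a2 (r = 0.97), Hspg2 (0.96) and Cavin1 (0.96), Fbn1 to Fstl1, Nedd4 and Cavin3 (0.98 to 0.96), and Fbln5 to Fam13c, Tns2 and Cd200 (0.95 to 0.93). Fbln1 was nearest to Bnc2, Svep1 and Col6a5 (0.91 to 0.90) and Mfap5 to C1ra, C1s1 and Dclk1 (0.93 to 0.92). Loxl1 was nearest to Ccn5, Aebp1 and Osr1 (0.97 to 0.93), Lox to Kdelr3, Sod3 and Ptgis (0.96 to 0.95), Efemp2 to Rab34, Nupr1 and Lhfp (0.96 to 0.95), and Emilin1 to Cd109, Maged1 and Dpysl3 (0.92 to 0.91). Among the 10 genes themselves, Efemp2 and Loxl1 (r = 0.92) and Eln and Fbn1 (0.90) were the most alike pairs. None of the 10 was among the 3 nearest of another.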

How the data were processed

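Per the file headers, the deposited files are raw UMI counts (whole numbers, not normalized) with barcode and gene lists for 2 libraries; the authors used Cell Ranger 7.1.0 on mm10, per the submitters' processing notes. The barcodes and features files give names only. Every deposited barcode had at least 500 UMIs. The counting of introns and strand is not given in the sources used here.

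Kept were cells with 300 or more genes and no more than 10% mitochondrial UMIs (39503 WT and 28960 EC-iCD45KO). Scrublet's own threshold marked 3 of 39716 and 0 of 29991 cells and had not worked, so the 10% of cells with the highest doublet scores were removed per library. Cells were clustered with scanpy 1.11.5 and leidenalg 0.10.2 (2000 variable genes without the 10 members, the listed pathway genes and Ptprc; 30 components, 20 neighbours, resolution 1) and named from marker lists; clusters led by markers of another class stayed unnamed. UMIs were summed per class and library and given as CPM of all UMIs of the class. Intervals are 95%: exact Poisson for levels, Clopper-Pearson for shares, conditional binomial for ratios; cells are not replicates. Genes compared had at least 5 CPM on average, and 2-fold is a description, not a test. Nearest genes were ranked by Pearson r among genes of at least 50 CPM, class markers left out; those of Mfap4 are not reported here. All 10 members were named; other listed genes were named from at least 20 CPM on average in 1 of 4 classes. Gene IDs matched GENCODE M21 for 32158 of 32285. Ratio intervals were run on counts simulated from the counting model they assume, which hold no variation between cells, animals or libraries. The members, lists and markers were chosen with earlier results of these data known. Alternatives used edgeR 4.0.16 for TMM factors only.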

Additional observations from a re-analysis of the deposited data

Results flagged for a closer look

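For 3 genes the ratio of the EC-iCD45KO to the WT level had opposite signs in different classes, with counting intervals on opposite sides of 0, as had 4.93% of 9835 genes; with 1 library per group the difference between classes was not tested. Eln was at 0.30 on the log2 scale in SMC-like, 0.24 in fibroblast-like and -0.30 in EC-like cells. Within clusters it was -0.02 in the shallower SMC-like and 0.43 in the EC-like Sfrp1 cluster, and the EC-like value became 0.41 with clusters weighted equally and 0.022 with centred components. Fbn1 was at 0.19 in SMC-like, 0.25 in fibroblast-like and -0.43 in EC-like cells. Fbln1 was at -0.86 in SMC-like and -0.14 in fibroblast-like cells and at 1.11 in EC-like cells, where it rested on 39 and 104 UMIs.

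A cluster outside the comparisons, led by Cthrc1, Thbs2, Lox and Col1a1, held 33 WT cells and 1 EC-iCD45KO cell and had Eln at 2772 CPM (2392 to 3196) and Lox at 642.0 CPM (466.5 to 861.9) in WT. Loxl1 was 350.2 CPM, from 24 UMIs, and 57.1% of its 28 thinned cells had UMIs of at least 3 of the 10 genes, against 12.9% of WT SMC-like cells. Lox and Eln are among its leading genes, so these levels describe the cluster only.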

How the results depend on the processing

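No paired analysis was possible because a group is 1 library here. The median member log2 ratio in fibroblast-like cells, 0.25, became 0.73 with a filter of 500 genes and 5% mitochondrial UMIs, 0.82 with no doublet removal and 0.89 with Scrublet's own threshold; in these settings the class took in 807, 1308 and 1682 WT but only 9, 60 and 68 EC-iCD45KO cells of the cluster led by Slurp1 and Dmp1. The EC-like median, 0.06, became 0.38 with the mean of single-cell CPM and, as an alternative chosen after seeing the data, 0.46 with clusters weighted equally. The Eln ratio in SMC-like cells, 0.30, stayed above 0 in each alternative run. It was 0.55 with a filter of 500 genes and 5% mitochondrial UMIs, 0.40 with a filter of 200 genes and 20%, 0.54 with no doublet removal, 0.39 with Scrublet's own threshold, 0.64 with centred components, 0.46 at resolution 2, 0.39 with TMM factors and 0.40 with median-of-ratios factors. As added alternatives it was 0.21 with clusters weighted equally and 0.49 with the Vcam1 cluster counted as SMC-like. The SMC-like median stayed within 0.06 to 0.34, and 3 to 5 genes were higher in fibroblast-like cells.

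Of single ratios, 254 of the alternative values lay inside the main interval, 100 lay outside it without reversing a ratio whose interval excluded 0, and 11 reversed one. In SMC-like cells Fbn1 became -0.071 with centred components and Fbln1 0.019 with the mean of single-cell CPM. In fibroblast-like cells Fbln1 became 0.47 with the stricter filter, 0.56 with no doublet removal, 0.65 with Scrublet's own threshold and 0.045 with centred components, and with clusters weighted equally Efemp2 became -0.24 and Lox -0.12. In EC-like cells Eln became 0.022 with centred components and 0.41 with clusters weighted equally, and Fbln5 became 0.50 with centred components, where the class held 275 and 344 cells. TMM and median-of-ratios factors moved every SMC-like ratio by 0.09 and 0.10. Of shares of cells with a UMI, 140 of 160 moved out of their interval without thinning or at 2000 UMIs. Eln was at 7.22 to 16.4 CPM in macrophage-, T/NK- and B-like cells, and low levels of this size cannot be told apart from free RNA.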

Other observations

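Cells led by Higd1b, Notch3 and Rgs5, which are genes of pericytes and small vessel mural cells, were left unnamed and entered no comparison. They numbered 200 in WT and 238 in EC-iCD45KO. Eln stood at 85.7 CPM in WT and 387.6 CPM in EC-iCD45KO in them (log2 ratio 2.18, 1.72 to 2.67) and Fbn1 at 13.9 and 65.2 CPM, with Efemp2 at 63.7 and 62.9 CPM. Pericyte markers went from 2424 to 4683 CPM with them, SMC markers from 22023 to 26900 CPM and fibroblast markers from 336.6 to 610.0 CPM, and their part in the values was not tested. A cluster led by Slurp1, Dmp1 and Vcam1 held 2794 WT and 624 EC-iCD45KO cells, and in it Lox stood at 37.5 and 117.3 CPM (1.64, 1.26 to 2.03) and Mfap5 at 42.4 and 116.1 CPM (1.45, 1.07 to 1.83). Its fibroblast markers were at 4859 and 9171 CPM and its SMC markers at 2099 and 2956 CPM, and their part in these values was not tested.

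The cluster led by Gpihbp1, Fabp4 and Rbp7 (2182 and 2656 cells) had EC markers at 2468 and 2622 CPM but stayed unnamed, since Fabp4 is also on the adipocyte list. Its Fbln5 was 120.2 CPM in WT and 112.0 CPM in EC-iCD45KO and its Eln 106.4 and 138.1 CPM. The EC-like cluster led by Gpihbp1 alone had higher Fbln5 in both libraries, at 340.3 and 292.3 CPM, and Eln at 160.7 and 132.9 CPM.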
